A study of Homo sapiens with 12 samples.

Results

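K562 is a cell line from a human chronic myeloid leukemia in blast crisis, and its growth depends on BCR-ABL1, a fusion of the BCR and ABL1 genes whose kinase activity is constant. Imatinib blocks the ATP pocket of that kinase. The comparison described here is imatinib alone against no drug: 3 libraries of K562 cells kept for 12 h with 0.5 µM imatinib, and 3 control libraries, 6 of the 12 libraries of the series. The remaining 6 libraries held cells given 25 µM MLN4924, an inhibitor of the enzyme that activates NEDD8, alone or with imatinib. They entered the fit to estimate the spread, and the MLN4924 libraries are set against imatinib at the end. The cells of all groups carry BCR-ABL1. RNA was poly(A)-selected. All results rest on this line alone, and the labels name no solvent for the controls. The sources used here do not say whether libraries of 1 group were grown as independent cultures, and if they were not, the p-values below reflect technical spread only. Every Ensembl gene with at least 1 TPM, a measure of transcript abundance, in at least 3 of the 12 libraries was compared, 15478 of the 61541 in the table.

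BCR-ABL1 feeds STAT5, RAS-ERK and PI3K-AKT signalling, which keep leukemic progenitors growing, hold FOXO transcription factors out of the nucleus and restrain the cell-death genes of the BCL2 family. MYC, a transcription factor downstream of these routes, drives genes for glycolysis, nucleotide and polyamine synthesis and the translation machinery. K562 cells can also be moved along the red cell lineage, in which GATA1, TAL1 and KLF1 switch on genes for hemoglobin, the red cell membrane and iron uptake, and growth slows.

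TPM values are scaled so that each library sums to the same total. They carry no read numbers, and counting error could not be worked out from them. Genes were tested on log2(TPM + 1), a scale that understates the change of low genes. A gene is said to have risen or fallen when the adjusted p of the limma fit was under 0.05. Imatinib replicate 3 stood apart from the other imatinib libraries: over the 2451 genes changed at least 2-fold in a fit without it, it moved in the same direction for 98.7%, and by a median of 70.3% of the change in the other 2 libraries, against the same controls. Globin transcripts made up 7.64%, 7.20% and 5.53% of all TPM in imatinib libraries and between 2.03% and 2.11% in control libraries, and transcripts of the mitochondrial chromosome 17.7% ± 0.466 in imatinib and 13.2% ± 0.428 in control libraries (SD, n = 3 each). Larger shares of these transcripts lower the TPM of all others, so the counts over all genes higher or lower and over the gene lists were also taken on rescaled values, from which both sets had been removed. The median log2 fold change of all genes tested was 0.16 on rescaled values and 0.02 as deposited.

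After 12 h of imatinib, 4073 genes were higher (26.3% of those tested) and 4260 were lower (27.5%), 53.8% of genes in all. On rescaled values the split was 5436 higher and 3147 lower. A change of at least 2-fold was found for 2013 genes (13.0%), of which 1156 rose (7.47%) and 857 fell (5.54%). Without imatinib replicate 3 the counts were 3992 higher, 4400 lower and 2451 at least 2-fold. The 3 imatinib libraries lay wholly above the 3 control libraries for 30.4% of genes and wholly below them for 30.3%. ABL1, the drug's target, had 58.1, 64.4 and 65.8 TPM in imatinib libraries, against 69.7, 63.6 and 64.4 TPM in control libraries (log2 fold change -0.07, SE 0.07, adjusted p = 0.412). BCR averaged 33.6 ± 2.52 TPM with imatinib and 36.7 ± 2.76 TPM without (log2 fold change -0.13, adjusted p = 0.375). The groups overlap for both genes, and neither passed the test. Reads of the fusion transcript cannot be told apart from those of the 2 genes in these values.

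The rises and falls were not spread evenly over levels of expression. Of 1359 genes with a mean of 100 TPM or more, 16% rose and 59.2% fell. Of 2709 genes under 2 TPM, 27.1% rose and 5.6% fell. No gene list below was matched for level of expression. Protein-coding genes rose in 24.2% and fell in 33.8% of 11735 cases, whereas long noncoding RNA (lncRNA) genes rose in 37.5% and fell in 7.2% of 2451. At a like level of 5 to 20 TPM, 43.9% of 517 lncRNA genes and 26.7% of 3904 protein-coding genes rose. The number of Ensembl genes at 1 TPM or more was 14849, 14937 and 14792 in imatinib libraries and 14099, 13958 and 13937 in control libraries. These shares are descriptions of the values as deposited and were not taken on rescaled values, and whether read depth differed between the groups was not tested, as TPM does not hold it.

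**Figure D1:**
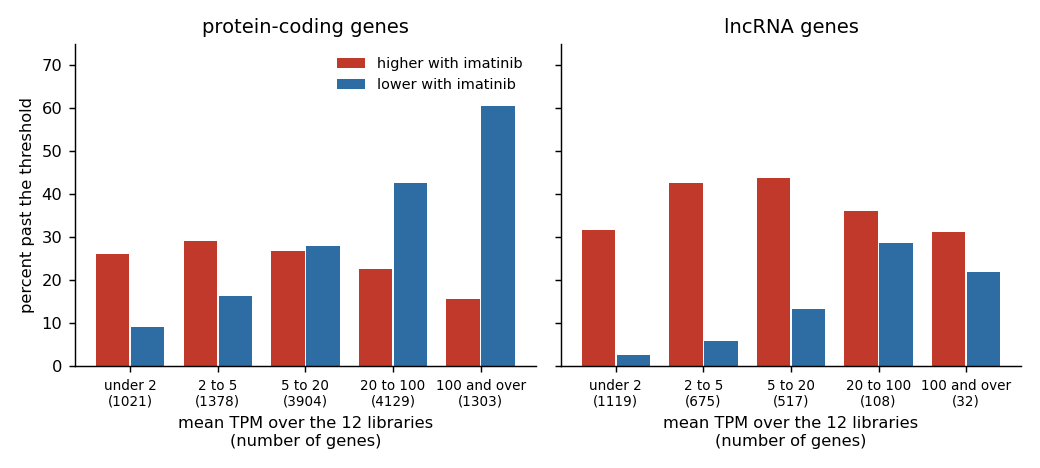
Percent of genes past the threshold (y axis) by mean TPM over the 12 libraries (x axis, with the number of genes), for protein-coding genes on the left and lncRNA genes on the right, with red bars for genes higher and blue bars for genes lower in imatinib than in control libraries. Blue bars grow with abundance to 60.5% of protein-coding genes at 100 TPM and over, and red bars stand above blue ones at every level for lncRNA genes.

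Among the 15 largest rises were genes outside hemoglobin synthesis with roles in the cytoskeleton and in lipids. ESPN (chr1:6424776-6461367 on GRCh38), which encodes the actin-bundling protein espin, had 140.5, 137 and 68.2 TPM in imatinib libraries, against 4.30, 2.05 and 0.89 TPM in control libraries (log2 fold change 5.14, SE 0.44, adjusted p = 7.08e-06). FAXDC2 (chr5:154818492-154859252), of the fatty acid hydroxylase family, had 150, 163 and 99.1 TPM with imatinib, against 10.3, 7.77 and 7.22 TPM without (log2 fold change 3.85, SE 0.22, adjusted p = 1.04e-06). PHOSPHO1 (chr17:49223366-49230787), a phosphatase of phosphocholine and phosphoethanolamine, had 16.3, 15.9 and 8.15 TPM, against 0.33, 0.58 and 0.48 TPM in controls. Separate groups were a condition for the choice of these genes. In all 3 genes replicate 3 was the lowest of the imatinib libraries. C17orf99, which encodes a small secreted protein known as interleukin 40, averaged 122 ± 41.6 TPM with imatinib and 9.15 ± 1.60 TPM without (log2 fold change 3.54, adjusted p = 3.47e-06). SGSM1, a regulator of RAB and RAP GTPases, was listed at 22.2, 8.56 and 25.3 TPM in imatinib libraries and at 0.01, 0 and 0 TPM in control libraries, and RNVU1-28, a variant U1 small nuclear RNA gene with many near copies, at 12.3, 9.18 and 28.4 TPM with imatinib and 0 in each control. Whether a listed 0 is a true absence or a failed estimate was not tested, so no fold is given for that pair. HMOX1, a gene that many cells use, is also listed at 0 in all 6 libraries.

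Counting only genes under 1 TPM in all 3 control libraries and at 5 TPM or more in all 3 imatinib libraries, 12 genes crossed from below to above, 9 of them protein-coding, and 1 gene crossed the other way. The 12 included EPB42, the membrane skeleton protein band 4.2, with 24.5, 22.3 and 9.65 TPM in imatinib libraries and 0.22, 0.24 and 0.33 TPM in controls. LMOD1, an actin nucleator of smooth muscle, had 14.3, 14.2 and 6.49 TPM, against 0.69, 0.35 and 0.66 TPM. NOXA1, an activator of NADPH oxidase, had 10.8, 10.9 and 7.06 TPM, against 0.18, 0.89 and 0.50 TPM. ASTN1, which encodes astrotactin, a protein of neuronal migration, had 11.8, 10.8 and 13.4 TPM, against 0.54, 0.72 and 0.83 TPM. BEST3, a chloride channel of the bestrophin family, and YPEL4 were further members. ANKRD55 (chr5:56099680-56233330), an ankyrin repeat protein, was the gene that crossed downward, at 0.25, 0.04 and 0.05 TPM with imatinib, against 6.48, 8.10 and 8.32 TPM without (log2 fold change -2.95, SE 0.19, adjusted p = 1.77e-06).

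**Figure D2:**
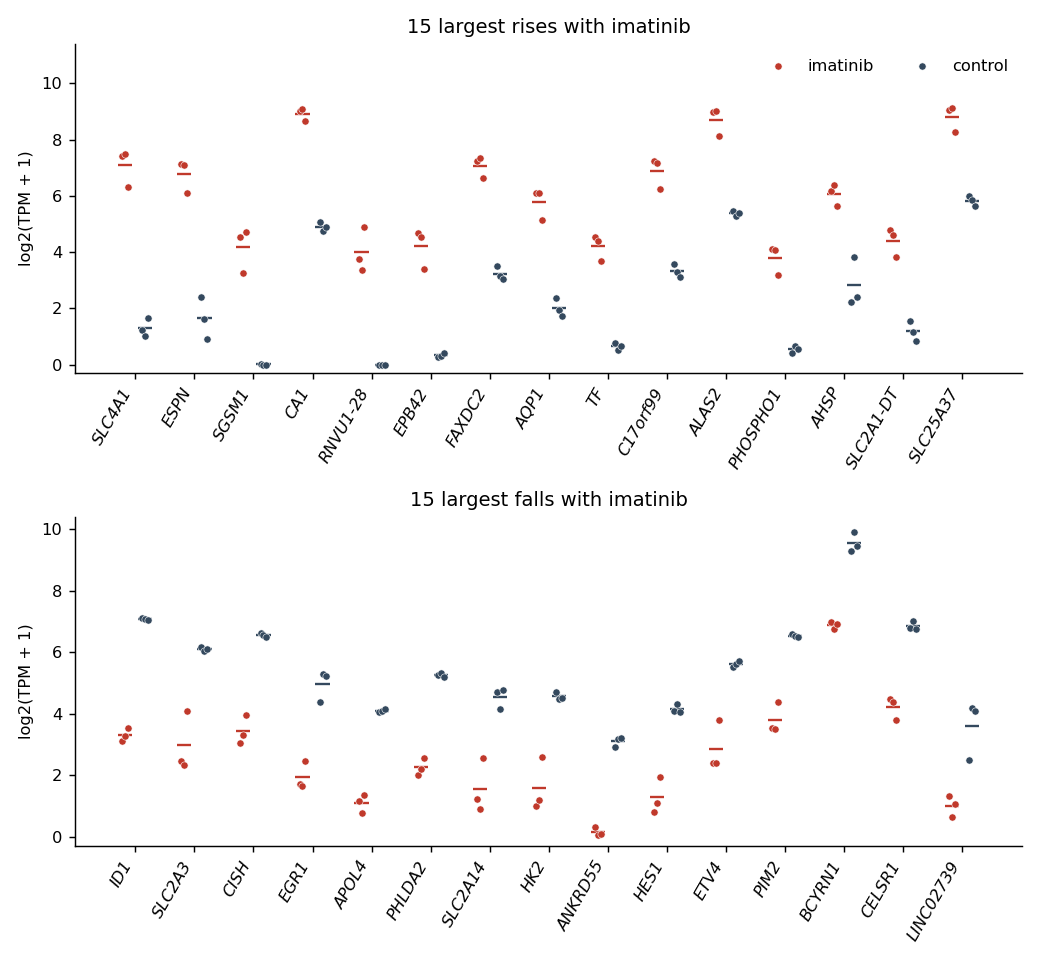
Expression of the 15 genes that rose most (upper panel) and the 15 that fell most (lower panel), as log2(TPM + 1), in 3 imatinib libraries (red) and 3 control libraries (dark blue), with a dash at the mean of each group. The groups do not overlap for any of these genes, as the choice of genes required, and SLC2A3 and SLC2A14 in imatinib replicate 3 lie between the other imatinib libraries and the controls.

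Of 27 tested members of a list of membrane and blood group genes, 26 rose (96.3%, against 26.3% of all genes tested) and 1 fell. The median log2 fold change was 1.58, and without imatinib replicate 3 the counts were again 26 and 1. GYPB, which encodes glycophorin B and belongs to a family of near copies that can share reads, averaged 454 ± 116 TPM with imatinib and 75.9 ± 10.1 TPM without. RHCE, the carrier of the Rh C and E antigens, averaged 60.8 ± 4.05 TPM with imatinib and 13.2 ± 1.70 TPM without, and KEL, the Kell antigen, 211 ± 42.6 and 50 ± 7.21 TPM. Other members rose by less. RHAG, the Rh-associated ammonia channel, averaged 591 ± 19.8 TPM with imatinib, against 464 ± 18 TPM (log2 fold change 0.35, adjusted p = 2.37e-04), and ANK1, the ankyrin that ties band 3 to spectrin, 139 ± 10.5 TPM against 113 ± 4.97 TPM (0.30, adjusted p = 0.00290). AQP1, the water channel that carries the Colton antigens, had 68.1, 68.4 and 34.7 TPM, against 4.12, 2.81 and 2.32 TPM. STOM, which encodes stomatin, a membrane protein that interacts with the glucose transporter GLUT1, was the member that fell, with 29.9, 29.8 and 39.2 TPM in imatinib libraries, against 61.7, 63.3 and 72.0 TPM in controls (log2 fold change -0.98, SE 0.14, adjusted p = 1.33e-04).

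Of 21 tested transcription factors of the red cell lineage, 12 rose (57.1%, against 26.3% of all genes tested) and 3 fell (14.3%, against 27.5%). TAL1 (chr1:47216290-47232225), the helix-loop-helix factor of the GATA1 complex, had 79.1, 83.1 and 65.5 TPM in imatinib libraries, against 31.3, 28.4 and 28.5 TPM in control libraries (log2 fold change 1.33, SE 0.11, adjusted p = 6.11e-06). LMO2, its bridging partner, averaged 131 ± 13.9 TPM with imatinib and 59.6 ± 8.94 TPM without (1.13, adjusted p = 1.18e-05), and GFI1B, a repressor needed for red cells and platelets, 112 ± 8.94 and 55.3 ± 4.66 TPM (1.0, adjusted p = 6.43e-06). GATA1, the factor central to the lineage, had 191 ± 9.91 TPM with imatinib and 196 ± 8.77 TPM without and did not pass (-0.04, adjusted p = 0.709). The 3 that fell were GATA2, MYB and NFIA. GATA2 and MYB keep progenitors immature, and GATA2 is replaced by GATA1 at its sites as red cells mature. GATA2 (chr3:128479427-128493201) had 16.5, 17.2 and 28.0 TPM with imatinib, against 80.0, 91.8 and 94.3 TPM (log2 fold change -2.09, SE 0.19, adjusted p = 9.23e-06). MYB (chr6:135181308-135219173) had 25.9, 28.7 and 41.9 TPM, against 105, 119 and 124 TPM (-1.84, SE 0.15, adjusted p = 4.93e-06). NFIA, a factor that favours the red cell over the granulocyte lineage, had 12.3, 18.9 and 10.8 TPM, against 22.6, 26.5 and 33.5 TPM (-0.95, SE 0.21, adjusted p = 0.00255).

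EPOR (chr19:11377207-11384342), the erythropoietin receptor through which red cell precursors receive their survival signal, had 49.9, 51.8 and 38.7 TPM in imatinib libraries, against 12.6, 9.44 and 10.9 TPM in controls (log2 fold change 1.99, SE 0.17, adjusted p = 6.23e-06). It had the largest rise among 20 tested cytokine and growth factor receptors, of which 3 rose and 8 fell (5 and 6 on rescaled values). The promoters of TAL1 and EPOR are shown because both genes rose here and are classic targets of GATA factors. Both windows run from 250 bases before to 50 bases after a RefSeq start site on GRCh38.p14, on the minus strand, at chr1:47232286-47232585 for TAL1 and chr19:11384265-11384564 for EPOR, and capitals mark the GATA letters GATAAG, which read CTTATC on the strand shown. The TAL1 window shown holds 2 matches and that of EPOR 1. TAL1 has 2 windows and EPOR 1, and the first window with a match was printed. A match in each printed window was thus fixed by the choice.
TAL1: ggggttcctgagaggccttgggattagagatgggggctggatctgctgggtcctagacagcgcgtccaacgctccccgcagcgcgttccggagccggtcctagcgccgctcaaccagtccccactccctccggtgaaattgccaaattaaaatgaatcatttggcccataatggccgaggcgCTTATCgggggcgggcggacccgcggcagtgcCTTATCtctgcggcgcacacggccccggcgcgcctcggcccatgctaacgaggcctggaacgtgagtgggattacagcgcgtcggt
EPOR: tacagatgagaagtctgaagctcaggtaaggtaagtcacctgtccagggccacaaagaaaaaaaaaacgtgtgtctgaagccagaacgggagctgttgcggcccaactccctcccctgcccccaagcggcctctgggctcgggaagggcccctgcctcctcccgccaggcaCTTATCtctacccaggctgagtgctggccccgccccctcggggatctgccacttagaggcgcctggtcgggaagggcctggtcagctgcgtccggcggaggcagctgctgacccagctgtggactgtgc
Searched on both strands, GATAAG was in 6.8% of 870 windows of genes that rose at least 2-fold, 3.6% of 885 windows of genes that fell at least 2-fold and 4.4% of all 14718 windows of the 10256 tested genes that had one. A match is a description of letters and not a bound site.

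Of 23 tested genes of iron handling, 12 rose (52.2%, against 26.3% of all genes tested) and 6 fell (26.1%, against 27.5%). On rescaled values 12 rose and 1 fell. SLC25A37, which encodes mitoferrin 1, the importer of iron into the mitochondria of red cell precursors, had 528, 563 and 308 TPM in imatinib libraries, against 62.3, 56.5 and 48.5 TPM in controls (log2 fold change 3.0, SE 0.20, adjusted p = 2.17e-06), whereas its near relative SLC25A28 did not pass (-0.28). TFRC, the transferrin receptor, averaged 271 ± 5.66 TPM with imatinib and 151 ± 11.9 TPM without, and TFR2, an iron sensor that binds the erythropoietin receptor, 117 ± 19.6 and 37.9 ± 2.09 TPM. NCOA4, the cargo receptor that delivers ferritin to lysosomes, rose (log2 fold change 1.0). HMOX2, a heme-degrading oxygenase, had the largest fall, at 33.0 ± 3.63 TPM with imatinib and 75.3 ± 2.48 TPM without (-1.17, adjusted p = 7.08e-06). Of 13 tested genes listed for the clearance of proteins and organelles in maturing red cells, 8 rose (61.5%) and 3 fell (23.1%). BNIP3L, the mitochondrial receptor for clearance of mitochondria from reticulocytes, averaged 53.1 ± 11.0 TPM against 23 ± 2.67 TPM (1.16, adjusted p = 3.25e-04). The largest rise of the list was in MFSD2B, an exporter of sphingosine 1-phosphate and not a clearance gene, at 22.3 ± 1.62 TPM against 4.24 ± 0.648 TPM (2.16, adjusted p = 1.07e-05). UBE2O, the ubiquitin ligase that remodels the reticulocyte proteome, fell by 0.41 on the log2 scale.

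Of 20 listed genes of the megakaryocyte, the platelet precursor, 10 were tested, 3 rose (30.0%, against 26.3% of all genes tested) and 1 fell. TUBB1 (chr20:59019429-59026654), the beta-tubulin of platelets, had 92.9, 101 and 74.8 TPM in imatinib libraries, against 12.6, 10.2 and 10.2 TPM in controls (log2 fold change 2.91, SE 0.12, adjusted p = 2.86e-07). ITGA2B, the platelet integrin subunit, averaged 5.45 ± 0.731 TPM against 1.83 ± 0.490 TPM, CD9 rose by a log2 fold change of 0.83, and MEIS1, a homeobox factor of progenitors, fell. The defining platelet genes PF4, PPBP, SELP and TREML1 were listed at 0 in all 6 libraries. Whether a listed 0 is a true absence was not tested for these or the markers below. The summed level of that list lay between 193 and 230.2 TPM with imatinib and between 106 and 180.3 TPM without. Of 18 granulocyte and monocyte markers 5 were tested and 12 were under 1 TPM in all 6 libraries, with MPO, ELANE, CTSG, S100A8 and S100A9 at 0, and the summed level of the list lay between 26.9 and 30.2 TPM with imatinib and between 41.1 and 49.8 TPM without. CD33, a myeloid surface receptor, fell to 6.73 ± 0.864 TPM in imatinib libraries, against 18.3 ± 0.407 TPM in controls. The summed level of 12 lymphoid markers lay between 5.67 and 14.6 TPM with imatinib and between 44.6 and 49.4 TPM without, most of it CD3D, a T-cell receptor chain, at 4.06, 7.63 and 12.6 TPM against 45.0, 41.1 and 36.8 TPM. Of 12 stem and progenitor markers 4 were tested, 1 rose and 2 fell, and of 9 mast cell and 9 epithelial or fibroblast markers 1 and 2 were tested, with 1 risen in each list and 0 without imatinib replicate 3. The part of other cell types in these results was not tested. In bulk RNA of this kind, fewer cells of a type and less RNA per cell cannot be told apart.

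Transporters and kinases at the entry of glucose split, and genes of the later steps of glycolysis fell. Of 24 tested genes of glucose uptake, glycolysis and lactate export, 16 fell (66.7%, against 27.5% of all genes tested) and 3 rose (12.5%, against 26.3%). The median log2 fold change was -0.79, and 5 rose and 16 fell on rescaled values. Of protein-coding genes at 100 TPM and over, 60.5% fell, and the list was not matched for level of expression. SLC2A3 (chr12:7919230-8019007), which encodes GLUT3, a transporter of high affinity, had 4.55, 4.05 and 16.1 TPM in imatinib libraries, against 70.8, 64.3 and 68.4 TPM in control libraries (log2 fold change -3.13, SE 0.41, adjusted p = 8.19e-05), and its near copy SLC2A14, with which it can share reads, 1.33, 0.85 and 4.87 TPM against 25.4, 16.7 and 26.3 TPM. SLC2A1 (chr1:42925353-42958893), which encodes GLUT1, the glucose transporter of red cells, moved the opposite way, with 262, 316 and 192 TPM against 125, 99.9 and 80.7 TPM (log2 fold change 1.32, SE 0.20, adjusted p = 2.58e-04). The divergent lncRNA of its promoter, SLC2A1-DT, had 26.3, 23.6 and 13.3 TPM with imatinib and 1.94, 1.21 and 0.79 TPM without (3.23, SE 0.28, adjusted p = 7.60e-06). HK2 (chr2:74834127-74893359), the inducible hexokinase, had 0.98, 1.29 and 4.96 TPM, against 24.9, 21.4 and 21.6 TPM (-2.97, SE 0.34, adjusted p = 3.56e-05), whereas HK1, the hexokinase of red cells and most other tissues, had 247, 255 and 253.5 TPM against 268, 249 and 264 TPM and did not pass (-0.05, SE 0.08, adjusted p = 0.645). For SLC2A3 and HK2 the fall was largest in imatinib replicates 1 and 2, and replicate 3 stayed well below the controls.

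Downstream, PFKM, the muscle phosphofructokinase, averaged 15.6 ± 0.503 TPM with imatinib and 43.2 ± 2.28 TPM without (log2 fold change -1.41, adjusted p = 1.92e-06), while the liver and platelet forms PFKL (-0.09) and PFKP (0.08) did not pass. ENO1, the enolase of most tissues, had 663, 667 and 1030 TPM against 2219, 2024 and 2150 TPM (-1.47, SE 0.15, adjusted p = 1.67e-05). PKM, pyruvate kinase, averaged 85.5 ± 23.6 TPM with imatinib and 343 ± 24.9 TPM without (-2.02, adjusted p = 3.52e-06). LDHA, the lactate dehydrogenase subunit of glycolytic cells, averaged 273 ± 113 TPM against 943 ± 28.8 TPM (-1.86, adjusted p = 2.08e-05). SLC16A1, the lactate transporter MCT1, fell to 43.9 ± 8.11 TPM with imatinib, against 81.1 ± 2.57 TPM. GAPDH, often used as a reference gene, fell too, to 1970 ± 54.9 TPM, against 2991 ± 103 TPM (-0.60, SE 0.05, adjusted p = 6.38e-06).

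**Figure D3:**
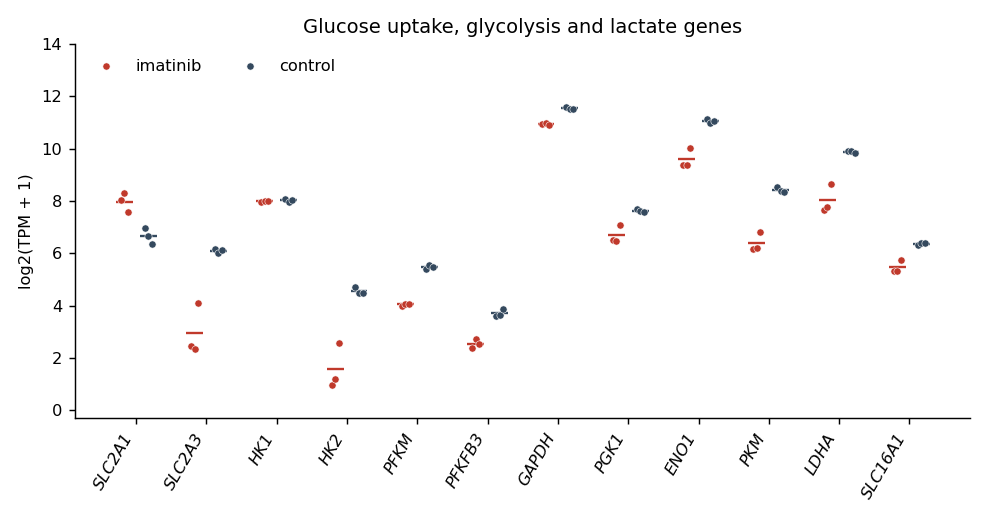
Expression of 12 genes of glucose uptake, glycolysis and lactate transport as log2(TPM + 1) in 3 imatinib libraries (red) and 3 control libraries (dark blue), with a dash at each group mean. SLC2A1 is higher with imatinib, HK1 overlaps between the groups and the other genes are lower in all 3 imatinib libraries.

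Nuclear genes of mitochondrial function were mostly lower as well. Falls were common among abundant genes in general. Of protein-coding genes, 42.7% fell at 20 to 100 TPM and 60.5% at 100 TPM and over, against 27.5% of all genes tested. Of 25 tested genes of mitochondrial protein import, 21 fell and 1 rose, with a median log2 fold change of -0.91. TOMM40, the pore of the outer membrane, had 43.7, 41.0 and 75.2 TPM in imatinib libraries, against 201, 185 and 170 TPM in controls (-1.83, SE 0.19, adjusted p = 2.13e-05). PMPCB, a subunit of the protease that removes targeting sequences, was the member that rose, to 108 ± 6.03 TPM, against 64.7 ± 6.63 TPM. Of 22 genes of pyruvate entry and the citrate cycle 13 fell (59.1%) and none rose (8 and 1 on rescaled values). Of 45 nuclear-encoded respiratory chain genes 30 fell (66.7%) and 1 rose. The median was -0.25 for both lists. The small shifts of the respiratory list depended on the scaling, as 16 of the 45 fell and 7 rose on rescaled values. CYCS, which encodes cytochrome c, had the largest fall of the respiratory list, to 74.7 ± 26.4 TPM with imatinib, against 165 ± 6.09 TPM without. On the mitochondrial chromosome itself 12 of 14 tested genes rose and 1 fell, with a median log2 fold change of 0.43. MT-CO3, a cytochrome oxidase subunit, rose by a log2 fold change of 0.46 (adjusted p = 3.27e-05). The 2 ribosomal RNAs moved apart, with MT-RNR2 at 17065, 17421 and 16845 TPM in imatinib libraries, against 9830, 9781 and 9601 TPM in controls (0.81, adjusted p = 1.04e-06), and MT-RNR1 at 4105, 3828 and 4240 TPM, against 7130, 7390 and 7008 TPM (-0.82, adjusted p = 1.92e-06). Both ribosomal RNAs were read from a poly(A)-selected library, and how that selection acts on each was not tested.

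Of 10 tested genes of polyamine synthesis and breakdown, 4 fell (40.0%, against 27.5% of all genes tested), 1 rose and 5 did not pass. Polyamines are small cations that growing cells make from ornithine and decarboxylated S-adenosylmethionine. ODC1 (chr2:10439968-10448327), the ornithine decarboxylase, had 82.5, 83.7 and 126 TPM in imatinib libraries, against 289, 284 and 294 TPM in control libraries (log2 fold change -1.59, SE 0.17, adjusted p = 2.00e-05). SRM (chr1:11054584-11060020), spermidine synthase, had 25.0, 25.9 and 52.2 TPM, against 199, 178 and 187 TPM (-2.50, SE 0.24, adjusted p = 1.17e-05). AMD1, which supplies the decarboxylated S-adenosylmethionine, averaged 22.6 ± 5.81 TPM against 55.0 ± 4.17 TPM (-1.27, adjusted p = 2.25e-05). SAT1 (chrX:23783173-23786210), the acetyltransferase that starts polyamine breakdown, was the 1 of 10 tested members that rose, beside 4 that fell, with 62.9, 63.2 and 46.2 TPM against 20.1, 25.6 and 25.0 TPM (1.24, SE 0.18, adjusted p = 1.54e-04). The groups do not overlap for any of these 4 genes. The promoters of ODC1 and HK2 are shown as those of a polyamine and a glycolysis gene that fell and that are known MYC targets. Both windows shown hold 2 copies of the E-box CACGTG, the letters MYC and MAX bind, marked in capitals. Each of these genes has 2 windows, and the first with a match was printed, so a match was again fixed by the choice. The ODC1 window is on the minus strand at chr2:10447963-10448262 and the HK2 window on the plus strand at chr2:74834920-74835219, with the same build and span as above.
ODC1: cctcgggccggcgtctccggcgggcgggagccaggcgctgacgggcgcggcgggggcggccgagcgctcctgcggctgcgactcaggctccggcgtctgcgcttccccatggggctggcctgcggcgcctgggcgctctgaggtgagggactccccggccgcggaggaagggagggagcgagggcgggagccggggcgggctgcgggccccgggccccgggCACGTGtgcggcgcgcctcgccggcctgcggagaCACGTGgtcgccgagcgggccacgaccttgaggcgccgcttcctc
HK2: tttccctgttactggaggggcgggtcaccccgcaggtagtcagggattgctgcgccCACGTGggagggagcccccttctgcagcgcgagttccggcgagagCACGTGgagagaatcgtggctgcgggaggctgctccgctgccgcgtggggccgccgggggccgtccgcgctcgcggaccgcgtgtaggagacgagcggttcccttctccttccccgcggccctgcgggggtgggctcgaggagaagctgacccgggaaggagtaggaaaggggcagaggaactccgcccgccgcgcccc
CACGTG was in 15.9% of windows of genes that fell at least 2-fold, 9.4% of those of genes that rose at least 2-fold and 9.6% of all windows. The ETS letters CGGAAG were in 34.7% of windows of genes that fell, 21.0% of those of genes that rose and 30.7% of all, the STAT letters TTCNNNGAA in 6.4%, 5.2% and 6.1%, the FOXO letters GTAAACA in 2.9%, 3.7% and 2.7%, and the KLF letters CCACACCC in 2.6%, 4.0% and 3.2%. No printed match overlaps a match of another of the 6 motifs.

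Genes of nucleotide synthesis fell too. Of 25 tested genes of purine and pyrimidine synthesis, 20 fell (80.0%, against 27.5% of all genes tested) and 1 rose, with a median log2 fold change of -0.72. On rescaled values 16 fell and 1 rose. IMPDH1, of the step to guanine nucleotides, averaged 19.8 ± 4.49 TPM with imatinib and 65.8 ± 2.50 TPM without (-1.71, adjusted p = 2.30e-05), and PPAT, of the committed step to purines, 17.4 ± 5.41 and 41.1 ± 2.82 TPM (-1.23, adjusted p = 9.52e-05). CAD, the enzyme of the early steps to pyrimidines, fell to 32.7 ± 7.5 TPM with imatinib, against 75 ± 5.30 TPM. NME1, a nucleoside diphosphate kinase, had the largest fall of the list (-1.76), and its neighbour and close relative NME2 can share its reads. TYMS, thymidylate synthase, averaged 247 ± 24.6 TPM against 238 ± 6.69 TPM and did not pass (0.05, adjusted p = 0.567). Among 17 serine and folate genes 8 fell (47.1%) and 2 rose (8 and 5 on rescaled values). Of 16 amino acid transporters 9 fell (56.2%) and 3 rose (8 and 4 on rescaled values). SLC7A5, the leucine importer LAT1, fell to 28.8 ± 0.526 TPM with imatinib, against 57.4 ± 4.93 TPM, and SLC36A1, a proton-coupled exporter of amino acids from lysosomes, rose to 16.6 ± 2.02 TPM, against 7.30 ± 0.304 TPM.

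Most tested genes of the translation machinery beyond the ribosome fell. Of 20 cytosolic aminoacyl-tRNA synthetases, which charge tRNAs, 16 fell (80.0%) and 3 rose (12 and 3 on rescaled values). Of 33 translation factors 23 fell (69.7%) and 4 rose (22 and 6 on rescaled values). RNA polymerases I and III make ribosomal and transfer RNA, and of their 27 subunits and factors 20 fell (74.1%) and 3 rose (19 and 3 on rescaled values). Of all genes tested 27.5% fell, and of protein-coding genes at 100 TPM and over 60.5% fell. POLR1G (chr19:45406644-45410737), a subunit of polymerase I, had 3.24, 4.83 and 8.45 TPM in imatinib libraries, against 34.9, 35.4 and 31.9 TPM in controls (log2 fold change -2.51, SE 0.25, adjusted p = 1.52e-05). A paralog pair of polymerase III split: POLR3G, the form of stem and cancer cells, had 6.24, 5.55 and 11.8 TPM against 31.4, 35.5 and 30.3 TPM (-1.98, SE 0.21, adjusted p = 2.06e-05), and POLR3GL, the form of most differentiated tissues, 59.2, 54.0 and 51.4 TPM against 31.9, 32.5 and 29.7 TPM (0.79, SE 0.08, adjusted p = 1.62e-05). The summed level of the translation factors was 25900 ± 116 TPM with imatinib and 26011 ± 852 TPM without, most of it from EEF1A1, the elongation factor that brings tRNA to the ribosome. EIF5A, the factor that carries the polyamine-derived residue hypusine, averaged 315 ± 73.6 TPM with imatinib and 857 ± 25.8 TPM without (-1.46, adjusted p = 9.95e-06). The brakes on the cap-binding factor EIF4E also split, with EIF4EBP1 at 39.5 ± 6.48 TPM against 101 ± 3.80 TPM (-1.34) and EIF4EBP2 at 43.9 ± 1.25 TPM against 26.2 ± 0.445 TPM (0.72). VARS1, the valine synthetase, fell by 1.66 on the log2 scale, and AARS1, the alanine synthetase, rose by 0.39. Of 32 nuclear transport genes 26 fell (81.2%) and none rose, and 22 fell on rescaled values. The largest fall was in IPO4, an importin, at 14.2 ± 5.23 TPM with imatinib and 64.4 ± 3.65 TPM without (-2.15, adjusted p = 1.30e-05).

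Of 35 tested subunits and assembly factors of the proteasome, which degrades ubiquitin-marked proteins, 34 fell (97.1%, against 27.5% of all genes tested) and none rose. The median log2 fold change was -0.58, and 34 fell without imatinib replicate 3 too. PSME3, the nuclear activator PA28 gamma, had the largest fall, with 55.5, 59.4 and 91.5 TPM in imatinib libraries, against 157, 161 and 159 TPM in control libraries (-1.23, SE 0.15, adjusted p = 4.94e-05), while PSMG2, an assembly chaperone, had 63.6 ± 3.06 TPM against 63.8 ± 2.97 TPM and did not pass (-0.01). Of 18 targets of NRF2, the factor of the antioxidant response, 13 fell (72.2%) and 3 rose. Those that fell included the thioredoxin reductase TXNRD1, at 62.3 ± 11.6 TPM with imatinib and 120 ± 7.39 TPM without (-0.95, adjusted p = 5.95e-05). The series was built around neddylation, the attachment of NEDD8 to cullins, and of 26 genes of that machinery 16 fell (61.5%) and 3 rose. The shifts were small and depended on the scaling, as 9 fell and 5 rose on rescaled values. NEDD8 averaged 199 ± 11.7 TPM with imatinib and 236 ± 23.8 TPM without (-0.24, adjusted p = 0.0156, and -0.08, adjusted p = 0.38 on rescaled values), and NAE1, a subunit of its activating enzyme, 135 ± 14.6 and 168 ± 15.7 TPM (-0.32, adjusted p = 0.00894, and -0.16, adjusted p = 0.13 on rescaled values). SENP8, the protease that matures NEDD8, rose to 2.04 ± 0.410 TPM, against 0.740 ± 0.193 TPM (0.80, adjusted p = 0.00308).

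**Figure D4:**
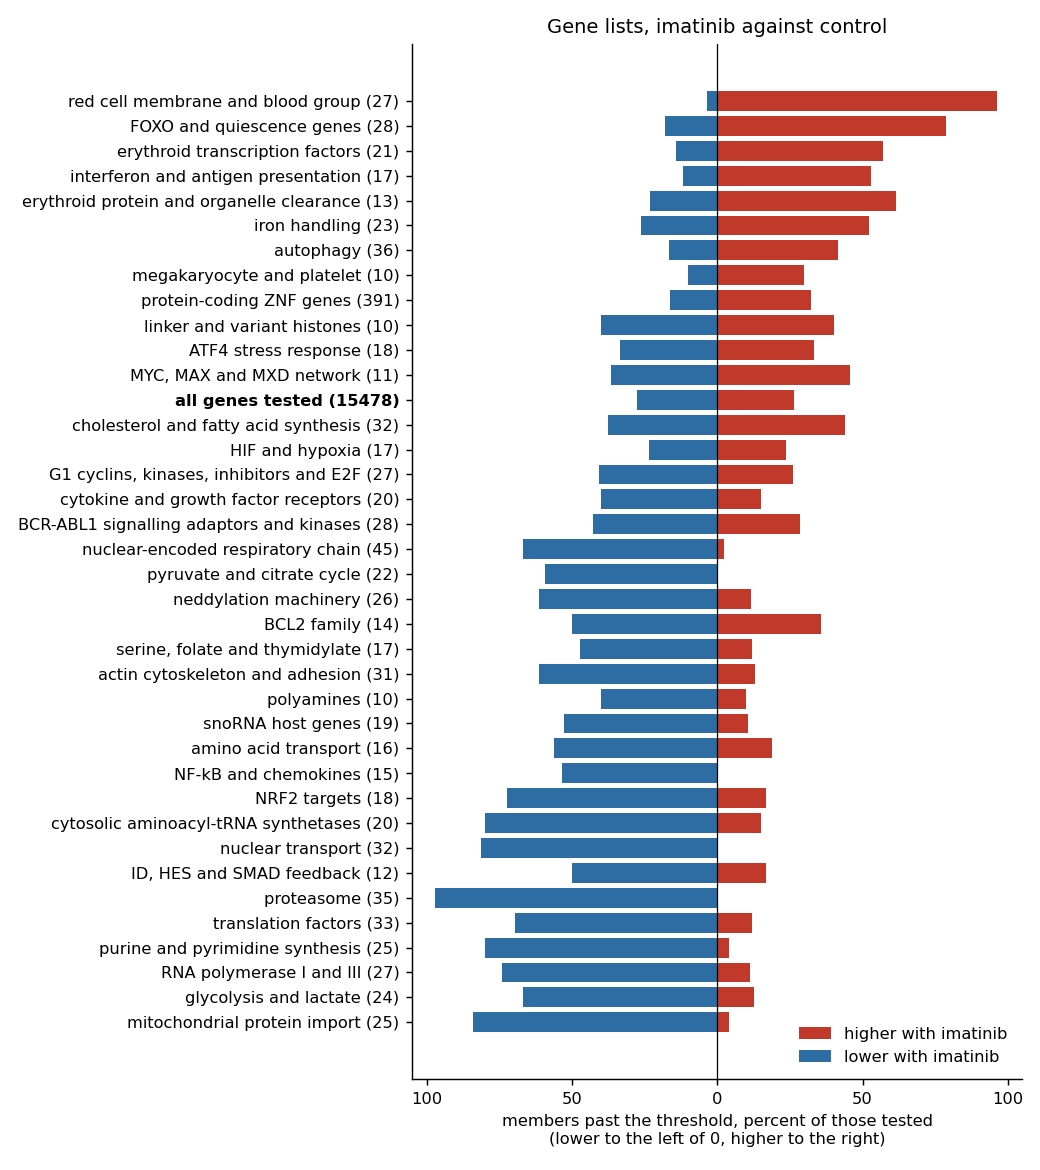
Share of tested members past the threshold in each gene list (number tested in parentheses), lower with imatinib to the left of 0 in blue and higher to the right in red, ordered by median log2 fold change, with all 15478 genes in bold. Red cell membrane genes (26 of 27 higher) and the proteasome (34 of 35 lower) have the largest share in 1 direction among the lists shown, which have at least 10 tested members.

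MYC works as a dimer with MAX, and MXD proteins bind MAX in its place and repress. MYC fell by 1.65 on the log2 scale. MXD3 (chr5:177301461-177312757) had 57.1, 54.5 and 39.0 TPM in imatinib libraries, against 11.5, 7.05 and 9.19 TPM in control libraries (log2 fold change 2.33, SE 0.23, adjusted p = 1.28e-05). MXD4 (chr4:2247432-2262109) had 27.1, 26.2 and 18.1 TPM, against 6.55, 5.25 and 6.38 TPM (1.80, SE 0.19, adjusted p = 1.93e-05). MAX averaged 41.3 ± 7.5 TPM with imatinib and 69.8 ± 10.1 TPM without (-0.75, adjusted p = 8.85e-04). Of the 11 members tested 5 rose (45.5%, against 26.3% of all genes tested) and 4 fell (36.4%, against 27.5%). MXD1 (0.43) and MXI1 (0.38) were among those that rose.

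FOXO factors, freed when AKT is inactive, drive genes of cell-cycle exit. Of 28 tested FOXO and quiescence genes 22 rose (78.6%, against 26.3% of all genes tested) and 5 fell (17.9%, against 27.5%). The median log2 fold change was 0.93, and on rescaled values 22 rose and 2 fell. YPEL3 (chr16:30092314-30096915), a growth suppressor, had 52.9, 53.9 and 30.3 TPM with imatinib, against 4.88, 5.44 and 4.52 TPM without (2.93, SE 0.20, adjusted p = 2.50e-06). TXNIP, an inhibitor of glucose uptake and of thioredoxin, averaged 159 ± 25.2 TPM against 42.4 ± 2.40 TPM (1.87, adjusted p = 4.81e-06), and BTG2, an antiproliferative factor, 56.4 ± 4.99 TPM against 12.7 ± 3.33 TPM (2.09, adjusted p = 1.24e-05). IRS1, an adaptor of the insulin receptor, had the largest fall of the list, to 0.317 ± 0.0751 TPM, against 2.65 ± 0.534 TPM. Of the factors themselves, FOXO3 rose to 12.7 ± 1.52 TPM, against 6.08 ± 0.335 TPM (0.94, adjusted p = 4.79e-05), and FOXO1 did not pass (-0.02).

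Among 27 regulators of the G1 phase 7 rose (25.9%, near the 26.3% of all genes tested) and 11 fell (40.7%, against 27.5%). On rescaled values 10 rose and 7 fell. The D cyclins, which start the cycle with CDK4 and CDK6, did not move together: CCND2 had 2.01, 2.06 and 3.41 TPM in imatinib libraries, against 12.6, 11.7 and 13.5 TPM in controls (log2 fold change -1.98, SE 0.16, adjusted p = 5.54e-06), CCND1 fell (-2.28), and CCND3, the most abundant of them, rose to 318 ± 39.2 TPM, against 246 ± 23.1 TPM (0.37, adjusted p = 0.0338). CDKN1C (chr11:2883213-2885775), which encodes the kinase inhibitor p57, had 89.6, 83.0 and 48.8 TPM, against 15.3, 12.6 and 12.6 TPM (2.33, SE 0.19, adjusted p = 6.38e-06). CDKN2C, the inhibitor p18 of CDK4 and CDK6, averaged 115 ± 12.3 TPM with imatinib and 51.6 ± 1.99 TPM without (1.13, adjusted p = 7.94e-06), and CDKN1B, the inhibitor p27, 39.6 ± 2.18 and 23.4 ± 2.37 TPM (0.74, adjusted p = 7.21e-05). RBL2, the retinoblastoma relative p130 of resting cells, rose to 45.0 ± 6.50 TPM, against 23 ± 1.62 TPM.

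In the BCL2 family, whose BH3-only members promote cell death by binding the protective ones, 5 of 14 tested genes rose and 7 fell. BMF (chr15:40087890-40108892) had 6.14, 8.35 and 4.81 TPM in imatinib libraries, against 0.77, 0.28 and 0.34 TPM in controls (log2 fold change 2.33, SE 0.25, adjusted p = 2.49e-05). BBC3, which encodes PUMA, had 18.2, 20.7 and 15.2 TPM, against 5.93, 6.40 and 5.95 TPM (1.42, SE 0.14, adjusted p = 1.58e-05). BAD also rose (0.59), whereas BID, a further member of this class, fell (-1.02). PMAIP1, which encodes NOXA, was lower as deposited (-0.32) and did not pass on rescaled values (-0.17, adjusted p = 0.181). Of the protective genes, BCL2L1, which encodes BCL-XL, fell to 42.0, 42.5 and 66.7 TPM in imatinib libraries, against 108, 104 and 99.98 TPM (-1.06, SE 0.19, adjusted p = 6.95e-04), BCL2 to 0.957 ± 0.437 TPM, against 2.87 ± 0.107 TPM (-1.01, adjusted p = 5.06e-04), and MCL1 to 57.2 ± 5.23 TPM, against 83.8 ± 2.55 TPM (-0.54, adjusted p = 0.00105), while BCL2L2, which encodes BCL-W, did not pass (-0.25). BAK1, the mitochondrial pore former, fell by 1.11 on the log2 scale, and BAX, its relative, did not pass (-0.13).

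**Figure D5:**
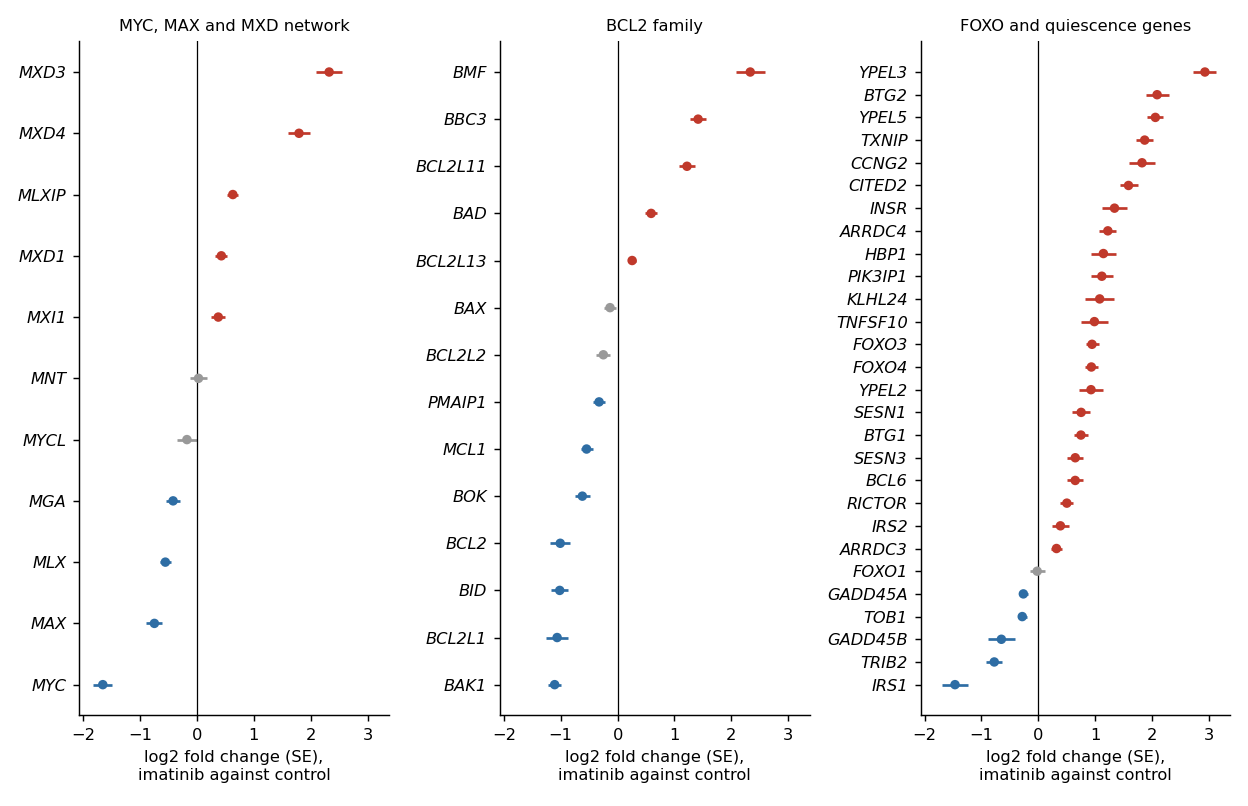
Log2 fold change of imatinib against control (x axis, line: ± 1 SE from the limma fit) for the tested members of the MYC network, the BCL2 family and the FOXO and quiescence genes, with red for genes that rose, blue for genes that fell and grey for genes that did not pass. MXD3, BMF and YPEL3 head the lists at 2.33, 2.33 and 2.93, and MYC, BAK1 and IRS1 are at their foot.

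Of 36 tested genes of autophagy, the delivery of cell contents to lysosomes, 15 rose (41.7%, against 26.3% of all genes tested) and 6 fell (16.7%, against 27.5%). On rescaled values 22 rose and 4 fell. ULK1, the kinase that starts autophagy, averaged 25.5 ± 3.23 TPM with imatinib and 8.85 ± 0.636 TPM without (log2 fold change 1.42, adjusted p = 6.38e-06). OPTN, a receptor for ubiquitin-marked cargo, averaged 97.8 ± 15.1 TPM against 30.5 ± 0.278 TPM (1.64, adjusted p = 4.80e-06), and PINK1, the kinase that marks damaged mitochondria, 34.4 ± 6.41 TPM against 11.5 ± 0.956 TPM (1.48, adjusted p = 1.07e-05). ATG101, a partner of ULK1 in its complex, went the other way, at 17.6 ± 3.68 TPM with imatinib and 38.1 ± 2.90 TPM without (-1.09, adjusted p = 3.54e-04), and TFEB, a transcription factor of lysosome genes, was lower as deposited (-0.52) and did not pass on rescaled values.

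Of 28 adaptors, kinases and phosphatases around BCR-ABL1, 8 rose (28.6%, against 26.3% of all genes tested) and 12 fell (42.9%, against 27.5%). On rescaled values 9 moved each way. The share risen was near that of all genes. GAB2, the adaptor that links BCR-ABL1 to PI3K, had 6.48, 6.66 and 5.60 TPM in imatinib libraries, against 14.9, 14.9 and 14.6 TPM in controls (log2 fold change -1.12, SE 0.09, adjusted p = 6.43e-06). LYN, a SRC family kinase, fell to 12.1 ± 0.928 TPM, against 23.2 ± 1.60 TPM. The phosphatases PTPN6 and INPP5D, which restrain such signals, rose. PTPN6, which encodes SHP-1, had 8.36, 9.78 and 6.71 TPM, against 2.31, 2.81 and 2.74 TPM (1.35, SE 0.26, adjusted p = 0.00110). INPP5D, which encodes SHIP1, averaged 3.10 ± 1.31 TPM, against 0.593 ± 0.105 TPM (1.32, adjusted p = 0.00161). The neighbouring genes STAT5A and STAT5B parted, with STAT5A at 95.1 ± 12.0 TPM against 174 ± 8.97 TPM (-0.87, adjusted p = 1.97e-05) and STAT5B at 91.2 ± 10.6 TPM against 60 ± 3.99 TPM (0.59, adjusted p = 3.42e-04). JAK2, the kinase of the erythropoietin receptor, rose to 19.1 ± 2.25 TPM, against 10.6 ± 0.632 TPM. PIM2, a survival kinase, fell to 10.5, 10.2 and 19.6 TPM, against 95.1, 90.5 and 88.2 TPM (-2.73, SE 0.22, adjusted p = 4.80e-06).

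Of 15 NF-kB and chemokine genes 8 fell (53.3%, against 27.5% of all genes tested) and none rose. Those that fell included the adhesion receptor ICAM1, at 5.84 ± 0.484 TPM with imatinib and 15.9 ± 1.60 TPM without (log2 fold change -1.30, adjusted p = 1.31e-05), while NFKB1, a subunit of the factor, did not pass (-0.08). Of 17 tested interferon and antigen presentation genes 9 rose (52.9%, against 26.3% of all genes tested) and 2 fell (11.8%). IRF7, an interferon regulatory factor, was at 5.39 ± 0.551 TPM against 1.72 ± 0.539 TPM (1.25, adjusted p = 2.98e-04) and TAP2, a peptide transporter, at 9.91 ± 1.74 TPM against 30.1 ± 2.28 TPM (-1.52, adjusted p = 0.00223). Of 31 actin and adhesion genes 19 fell (61.3%) and 4 rose (15 and 7 on rescaled values). Those that fell included ZYX, the focal adhesion protein zyxin, at 20.1 ± 2.41 TPM with imatinib and 58.4 ± 3.88 TPM without (-1.49, adjusted p = 6.30e-05). In the ID family, which blocks helix-loop-helix factors, ID2 moved against its relatives, with 16.8, 19.7 and 14.4 TPM in imatinib libraries, against 7.87, 7.51 and 3.82 TPM in controls (1.32, SE 0.26, adjusted p = 0.00125), while ID3 fell (-1.44). Lists that split almost evenly included the ATF4 stress response, with 6 of 18 risen and 6 fallen (33.3% each, 7 and 4 on rescaled values). HIF and hypoxia genes had 4 of 17 each way (23.5%, against 26.3% risen and 27.5% fallen of all genes tested). Linker and variant histones had 4 of 10 each way (40.0%, with 5 risen and 2 fallen on rescaled values). Cholesterol and fatty acid synthesis had 14 of 32 risen (43.8%) and 12 fallen (37.5%), with 15 and 7 on rescaled values. In that last list SQLE, squalene epoxidase, rose to 281 ± 33.0 TPM, against 141 ± 10.6 TPM, and ACLY, which makes cytosolic acetyl-CoA, fell to 97.8 ± 3.18 TPM, against 163 ± 3.05 TPM.

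Outside these lists the largest falls included genes with no shared role. APOL4 (chr22:36189124-36204840), of the apolipoprotein L family, had 1.23, 0.70 and 1.53 TPM in imatinib libraries, against 15.6, 16.1 and 16.9 TPM in control libraries (log2 fold change -3.02, SE 0.18, adjusted p = 1.36e-06). PHLDA2 (chr11:2928273-2929420), an imprinted gene that limits growth of the placenta, had 3.0, 3.58 and 4.92 TPM, against 37.2, 39.3 and 35.8 TPM (-3.01, SE 0.30, adjusted p = 1.61e-05). CELSR1 (chr22:46360834-46537620), a cadherin of planar cell polarity, had 21.1, 19.8 and 12.8 TPM, against 110, 127 and 107 TPM (-2.64, SE 0.19, adjusted p = 3.43e-06). For CELSR1 imatinib replicate 3 was the lowest of the 6 libraries. BCYRN1, the neuronal RNA BC200, whose sequence derives from an Alu repeat and can share reads with others, fell to 117 ± 9.48 TPM with imatinib, against 765 ± 176 TPM.

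Among lncRNA genes, of which 37.5% rose, LINC00656 had 16.9, 17.0 and 9.68 TPM in imatinib libraries, against 2.03, 1.95 and 1.36 TPM in control libraries (log2 fold change 2.45, SE 0.21, adjusted p = 7.05e-06). LINC00891 averaged 25.5 ± 6.76 TPM with imatinib and 4.12 ± 0.395 TPM without (2.34, adjusted p = 1.89e-05), and PDGFA-DT, the divergent transcript of PDGFA, 7.44 ± 2.51 and 0.613 ± 0.0945 TPM (2.34, adjusted p = 1.00e-05). Of the 5 lncRNA genes with the largest falls, 3 are named as antisense to a coding gene and 1 hosts a small nucleolar RNA. That host, SNHG15 (chr7:44983019-44986961), had 8.18, 8.04 and 21.8 TPM, against 52.8, 55.7 and 58.7 TPM (-2.20, SE 0.28, adjusted p = 6.55e-05). Of 19 tested host genes 10 fell (52.6%, against 27.5% of all genes tested) and 2 rose (10 and 4 on rescaled values), while GAS5 (0.11) and ZFAS1 (0.05) did not pass. The antisense gene STEAP1B-AS1 averaged 0.960 ± 0.335 TPM with imatinib and 7.63 ± 1.17 TPM without (-2.14, adjusted p = 1.71e-05), and VPS9D1-AS1 1.36 ± 0.975 and 8.74 ± 1.69 TPM (-2.11, adjusted p = 1.22e-04). No source used here gives the strand setting of the quantification, so reads of an antisense gene and of its partner may not have been told apart. Of 391 tested protein-coding zinc finger genes named ZNF, 126 rose (32.2%) and 63 fell (16.1%), against 26.3% and 27.5% of all genes tested. On rescaled values 178 rose and 45 fell. Their median log2 fold change was 0.18 as deposited. The share risen was near that of protein-coding genes at 2 to 5 TPM (29.1%), and whether these genes differ from others of like level was not tested.

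Set directly against the 3 MLN4924 libraries, imatinib libraries were higher for 28.1% of genes and lower for 30.3% (58.4% in all), in the same fit. That is 4345 genes higher and 4688 lower, and on rescaled values 5554 were higher and 3542 lower, so the balance depended on the scaling. The list counts of this comparison were taken on values as deposited only. The 2 single drugs differed in size: MLN4924 against control passed for 2239 genes (14.5%), with 7.36% higher and 7.11% lower, and 310 changed at least 2-fold (2.0%). Groups that fell with imatinib stood lower than in MLN4924 libraries as well, with all 35 proteasome genes, 31 of 45 respiratory chain genes and 16 of 24 glycolysis genes below. PKM had 85.5 ± 23.6 TPM with imatinib and 537 ± 12.0 TPM with MLN4924 (log2 difference -2.67, adjusted p = 2.6e-07), with MLN4924 above control by 0.65. Of the NRF2 targets 17 of 18 were lower with imatinib than with MLN4924, and MLN4924 against control was higher for 16 of the 18 (median 1.31), among them TXNRD1 at 62.3 ± 11.6 TPM against 482 ± 42.8 TPM with MLN4924 (-2.94). Genes of the red cell membrane were higher with imatinib in 26 of 27 cases. Against control, MLN4924 itself was lower for 11 of these 27 and higher for 2 (median -0.45). It was higher than control for 9 of the 35 proteasome genes and lower for none. The gaps of both lists thus hold changes with MLN4924 too. GAB2 had 6.25 ± 0.567 TPM with imatinib and 21.5 ± 0.393 TPM with MLN4924 (-1.64), and ZYX 20.1 ± 2.41 and 138 ± 8.77 TPM (-2.72), so that both were lower with imatinib than in either other group. Against control MLN4924 was higher by 2.0 for TXNRD1, 1.23 for ZYX and 0.51 for GAB2 on the log2 scale, so each gap with imatinib holds a rise with MLN4924 as well as a fall with imatinib. TYMS (-0.02) did not pass in this comparison.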

How the data were processed

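Poly(A) RNA of K562 cells was sequenced in 12 libraries, 3 in each of 4 groups. The authors trimmed reads with fastp, aligned them to the human genome with HISAT2, assembled transcripts with StringTie and deposited TPM values summed per gene; the processing notes also name featureCounts and GRCh38. TPM values keep no read depth, so no count model was used. Of 62232 lines, 691 assembled loci without an Ensembl ID entered no test, and 61369 Ensembl genes were matched to GENCODE 44 for symbols and positions. No value column was left unmapped.

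A gene was kept if 3 or more libraries reached 1 TPM. log2(TPM + 1) was fitted with limma 3.58.1 (R 4.3.3) with a trend and 1 coefficient for each of the 4 groups, and Benjamini-Hochberg adjustment covered the 15478 genes kept. P-values in the report are from this fit, or from the same fit on rescaled values where that is said, and an exact permutation test of 3 against 3 libraries could not go below 0.1. Tables and figures used Python 3.11.15, pandas 2.3.3, numpy 2.4.6 and matplotlib 3.10.9. Promoter windows and their sequences are from RefSeq (GRCh38.p14).

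Named genes were the 15 largest rises and the 15 largest falls among named genes with separated groups and at least 5 TPM in a group mean, the 10 largest gains and losses in TPM, the 4 leading genes of each list with its largest rise and fall, ABL1, BCR, and 5 lncRNA genes in each direction. Genes named beyond these were chosen after their values were seen. The comparison, the gene lists and the rule were chosen with earlier results of these data known. Alternatives were other pseudocounts (0.1 and 5), no filter or a 5 TPM filter, median-of-ratios scaling, rescaling without globin and mitochondrial genes, a replicate block, only the 6 libraries compared, no trend, and leaving out each library.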

Additional observations from a re-analysis of the deposited data

How the results depend on the processing

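Of 244 named genes 206 passed the threshold, and 185 of these kept their direction and their side of it under each of the 15 alternatives in which they had a value (227 of the 244 had one with the 5 TPM filter and 233 after rescaling); no named gene reversed. Leaving out 1 of the 6 libraries gave between 3460 and 3992 genes higher with imatinib than in controls, between 3633 and 4400 lower and between 1821 and 2451 changed at least 2-fold, against 4073, 4260 and 2013 with all libraries. With a pseudocount of 5, which compresses low genes, 856 genes changed at least 2-fold in imatinib against control libraries (2013 with a pseudocount of 1) and 1115 in imatinib against MLN4924 libraries (2524). Rescaling without globin and mitochondrial genes took 12 of 233 named genes below the threshold and 6 above it. The replicate block gave 4023 higher, 4237 lower and 2018 at least 2-fold. Whether replicate numbers pair the samples cannot be told from these values. Deviations of same-numbered imatinib and control libraries correlated only weakly, at 0.02, 0.061 and 0.048. Those of differently numbered libraries correlated between -0.045 and -0.007, so each library correlated best with its own number. Depth is unknown, so low genes carry an error that could not be stated, and a value of 0 may be a failed estimate.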

Other observations

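The 691 assembled loci that entered no test held 0.558% ± 0.02 of all TPM in imatinib libraries and 0.679% ± 0.052 in control libraries (SD, n = 3 each). RPL22P1, a processed pseudogene of a ribosomal protein gene that can share reads with its parent, was listed at 23.01, 34.4 and 28.1 TPM in imatinib libraries and at 0 in each control library.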
